A study of Caenorhabditis elegans with 8 samples.

Results

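The effect of the *nmad-1* deletion on germline mRNA was compared between 20°C and 25°C. For every gene the difference between *nmad-1* and WT at 25°C was set against the same difference at 20°C, both on the log2(value + 1) scale, and the result is called the difference of differences. It is positive where the *nmad-1* level relative to WT was higher at 25°C than at 20°C, and negative where it was lower. The genes are the 11265 of 46739 listed whose mean reached 10 in both tables, that of 20°C and that of 25°C. A further 995 genes reached this mean at 20°C alone and 690 at 25°C alone, and they were not tested. The genes nearest to the limit were *H10D18.5* and *F59B10.5* just inside it, with a lower mean of 10.002 and 10.005, and *R13A5.11* and *T05E12.3* just outside it, with 9.98 and 9.99.

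Germlines of 100 worms per sample were taken from WT (the N2 strain) and from *nmad-1*(ok3133) worms at 20°C and at 25°C, which gives 4 groups of 2 samples, with L4 as the stage in the labels. The mutant is a single strain with 1 deletion allele, which takes out most of the catalytic domain, and all worms were kept on bacteria that lack the dam and dcm DNA methylases. NMAD-1 belongs to the AlkB family of enzymes, which remove alkyl groups from nucleic acids, and the study set out to learn how its loss bears on fertility at these temperatures. The hermaphrodite germline holds mitotic cells, meiotic cells, sperm and growing oocytes inside a sheath of somatic cells, and the intestine, muscle, epidermis and neurons lie around it. Transcripts of those neighbours reach a germline extract when it is cut out of the animal. Histones, eggshell proteins, Argonautes and chaperonins are made in large amounts by germ cells, whereas digestive proteases, detoxifying enzymes and collagens are made by somatic tissues.

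Before the results, the libraries need a description. The 2 libraries of a group carry no number and are called A and B. They held between 18451560 and 33429408 reads, estimated from the smallest step between values. Genes annotated as ribosomal RNA took 34.8% of library A of *nmad-1* at 20°C and between 22.2% and 28.5% of the others. The median absolute log2 difference between the 2 libraries of a group was 0.437 in *nmad-1* at 20°C, against 0.144 in WT at 20°C, 0.156 in WT at 25°C and 0.200 in *nmad-1* at 25°C, so the *nmad-1* pair at 20°C stood apart from the rest. Its library A also held the most transcripts of neuron and muscle genes: the 34 neuron genes tested summed to 1455 parts per 1000000 of the total outside ribosomal RNA (ppm) in library A and 640.3 in library B, and the 43 muscle genes to 12996 and 5371. The main families are therefore also given without each of these libraries. The deposited values summed to 27164941 and 26491697 in WT and 24756864 and 26899521 in *nmad-1* at 20°C. At 25°C they summed to 33108053 and 32929742 in WT and to 22505140 and 21937580 in *nmad-1*. Genotype effects at 25°C as deposited therefore depend on the scaling. Each temperature was normalized by the authors in a table of its own, so a level set across temperatures is given in ppm and was not tested. In such bulk samples fewer cells of a type and less RNA per cell cannot be told apart.

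The deleted gene was examined first. *nmad-1* (chromosome III) had values of 540.3 and 471 in WT and 114 and 131 in the mutant at 20°C, and of 764 and 753 and 170.4 and 171 at 25°C. Both mutant libraries were below both WT libraries at each temperature. The tables give 1 value per gene, so where in the gene the remaining reads lie was not tested. The log2 fold change was -2.04 (0.20, standard error) at 20°C and -2.15 (0.20) at 25°C, and the difference of differences was -0.10 (limma adjusted p = 0.80). This difference was smaller than its standard error of 0.28.

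Across all genes, 1050 of 11265 passed a limma adjusted p of 0.05 for the difference of differences, which is 9.32% of the genes tested. The genotype effect was higher at 25°C for 909 of them (8.07%) and lower for 141 (1.25%). In the first group the median log2 fold change between *nmad-1* and WT was 0.14 at 20°C and 2.67 at 25°C. In the second group it was -0.07 at 20°C and -1.24 at 25°C. The size of the genotype effect was larger at 25°C for 1033 of the 1050 genes and smaller for 17. The median difference of differences over all 11265 genes was -0.11, with an SD of 1.15 across genes, so the calls lay on both sides of a distribution centred slightly below 0. At an unadjusted p under 0.05 the count was 3182 genes.

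**Figure D1:**
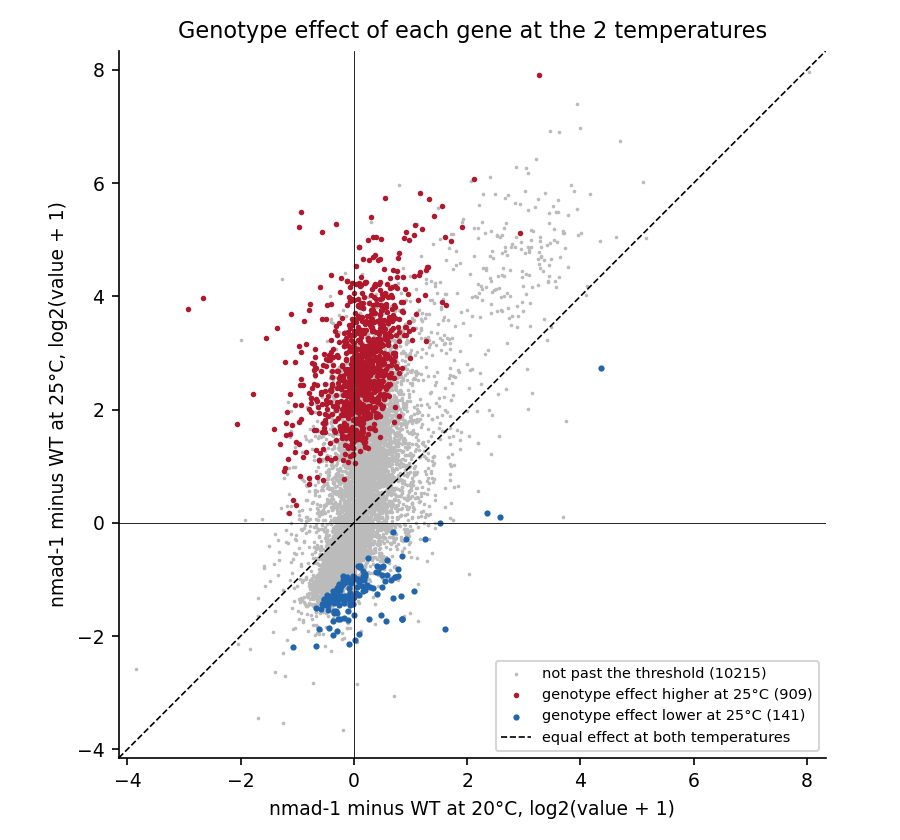
Each point is 1 of 11265 genes, with the log2(value + 1) difference between *nmad-1* and WT at 20°C on the x axis and at 25°C on the y axis, both over 2 libraries a group. The 909 red genes lie above the dashed line of equal effect, mostly near 0 on the x axis and between 1 and 5 on the y axis, and the 141 blue genes lie below it.

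These counts rested on which *nmad-1* library at 20°C was used. Without library A the call was made for 5827 genes, of which 2278 were higher and 3549 lower at 25°C, and 1042 of the 1050 genes were among them. Without library B it was made for 40 genes, 28 higher and 12 lower, all of them among the 1050. Leaving out a WT library gave between 314 and 642 genes, and leaving out an *nmad-1* library at 25°C gave 1260 (without A) or 357 (without B). The split of higher against lower calls moved with the scaling, from 909 against 141 as deposited to 215 against 97 with upper quartile scaling, 1738 against 27 with equal totals and 880 against 16 with the germ cell development genes set equal. The median over all genes was -0.11 as deposited and 0.11, 0.40 and 0.45 under those 3 scalings, so medians of gene families are also given relative to it. All 1050 genes kept the sign of their difference with each library left out in turn and under each of the 4 other scalings. In all 1050 the 4 pairwise differences at 25°C lay beyond the 4 at 20°C, so leaving out a library could not turn the sign. The 4 other scalings all raised the median over all genes, which works toward the sign of the 909 higher calls. For the 141 lower calls a kept sign shows only that the difference was larger than that shift. The kept signs are therefore no measure of stability. With the variance of each gene estimated without the trend on its mean, 4 genes passed, all higher at 25°C, with 2879 at an unadjusted p under 0.05.

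**Figure D2:**
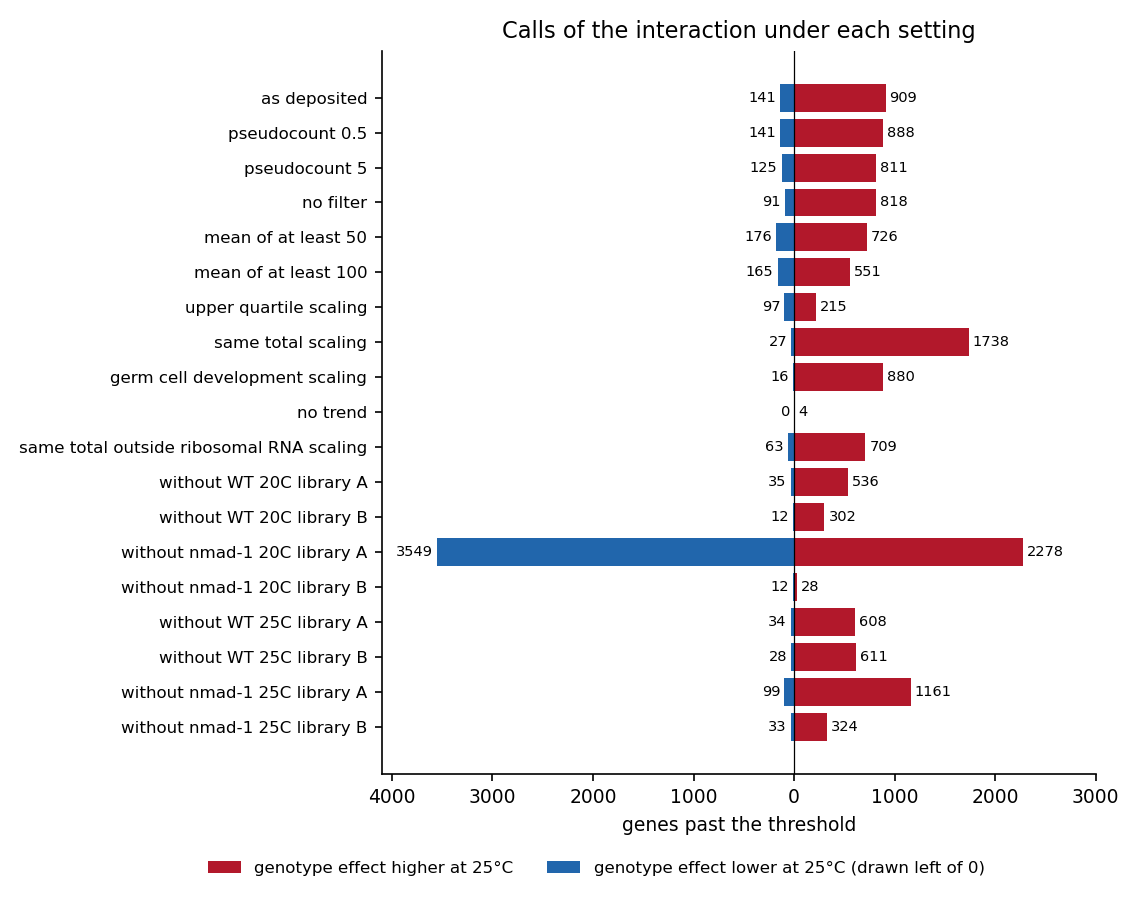
Bars show the number of genes past a limma adjusted p of 0.05 for the difference of differences under each setting, to the right for a genotype effect higher at 25°C and to the left for one lower at 25°C. The count is 909 and 141 as deposited, 2278 and 3549 without library A of *nmad-1* at 20°C, 28 and 12 without library B, and 4 and 0 without the trend of the variance on the mean.

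The 2 genotypes were then followed over temperature, in ppm outside ribosomal RNA. For the 909 genes with a higher effect at 25°C, WT was lower at 25°C than at 20°C for 900 and higher for 9, with a median log2 change of -2.17. *nmad-1* was higher at 25°C for 752 of these genes and lower for 157, with a median of 0.68. The change was larger in WT than in *nmad-1* for 775 of the 909, so for most of them WT moved more between the temperatures than *nmad-1* did. For the 141 genes with a lower effect at 25°C the median change was 0.24 in WT and -0.51 in *nmad-1*, and *nmad-1* was lower at 25°C for 110 of them. Over all genes tested the medians were -0.09 in WT and 0.13 in *nmad-1*. These levels cross the 2 tables and were not tested.

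The calls were spread unevenly over the range of expression. Genes were put into deciles by their mean value over the 8 libraries. In the fourth decile from the bottom 225 of 1126 genes (20.0%) had a higher effect at 25°C, whereas in the highest decile 4 of 1127 did (0.355%). Lower effects made up 35 of the 39 calls in the highest decile and 0 of the 44 calls in the lowest. The median difference of differences was 0.98 in the lowest decile, 1.17 in the second, 0.08 in the fifth and -0.43 in the highest. The families below differ in level. For the intestine, muscle and proteasome lists the decile that held the list's median level had a median over all genes of -0.18, -0.26 and -0.43, and for sperm genes outside the msp class, germ cell development genes and cytoplasmic ribosomal protein genes it had 1.102, -0.43 and -0.43, close to or beyond the medians of these 3 lists. The limit on the mean also bears on families that are low in WT. Of the genes tested, 1481 had a WT mean under 10 in at least 1 table and so passed through *nmad-1*, which favours a higher mutant level among them. They include 27 of 27 msp genes, 21 of 31 other sperm genes, 18 of 38 ugt, 8 of 13 math, 7 of 19 cest and 20 of 58 clec genes. Among neuropeptide and ttr genes they were 11 of 26 flp, 12 of 34 nlp and 11 of 39 ttr. In nspg, srlf and pgp they were 3 of 10 each, with 3 of 15 spp and 2 of 11 asp genes. In the cuticle, neuron and innate defence lists they were 8 of 39, 6 of 34 and 7 of 32. Of the intestine genes 4 of 47 were among them. The counts and medians of all these families, the intestine list among them, are therefore a description.

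**Figure D3:**
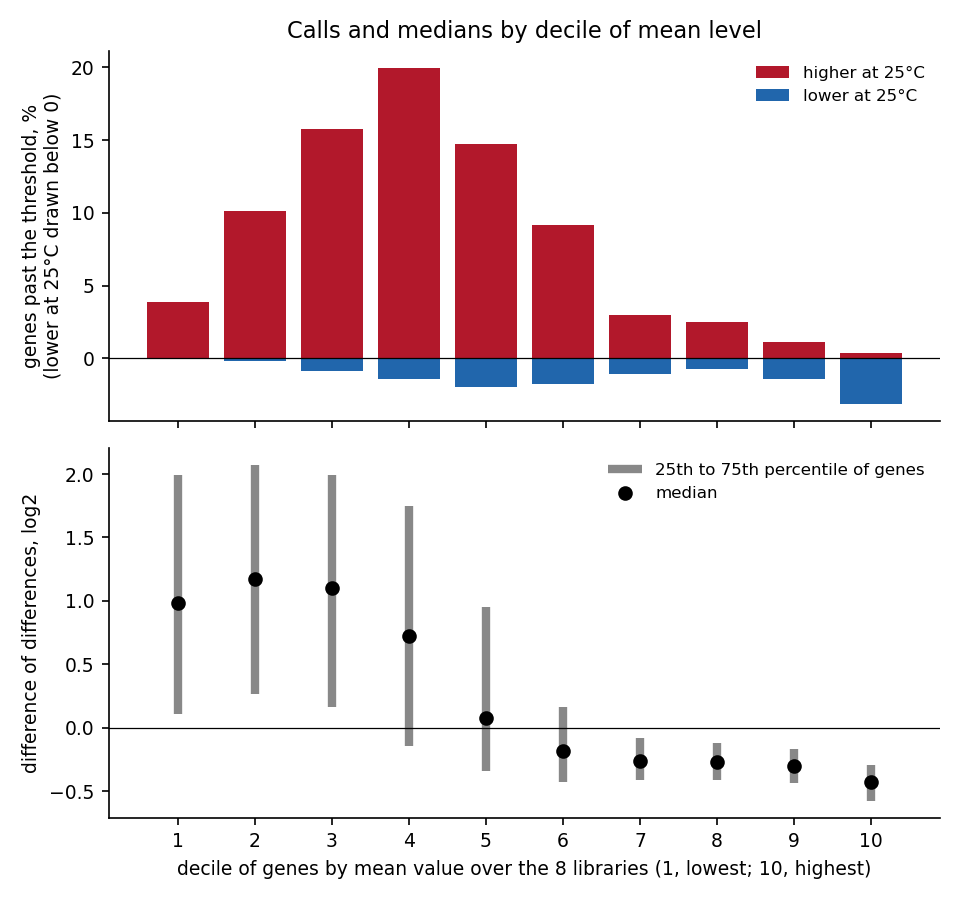
The upper panel gives the percentage of genes past the threshold in each decile of mean value, with genes lower at 25°C drawn below 0, and the lower panel gives the median difference of differences (points) with the 25th to 75th percentile of genes (bars). Higher calls peak at 20.0% in the fourth decile, and the median falls from 1.17 in the second decile to -0.43 in the highest.

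Of the classes of gene symbol with at least 10 genes tested, the 8 with the highest medians held 126 genes, of which 57 had a higher effect at 25°C and 0 a lower one. They were nspg, math, srlf, asp, ugt, pgp, cest and spp. The lowest median was that of the histone class his, with 17 of 49 genes lower and 1 higher at 25°C. Among the 20 gene lists the highest median was that of intestine genes (2.16) and the lowest that of oocyte and eggshell genes (-0.70). These families are described in turn, and their counts can be read against the 8.07% and 1.25% of all genes.

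**Figure D4:**
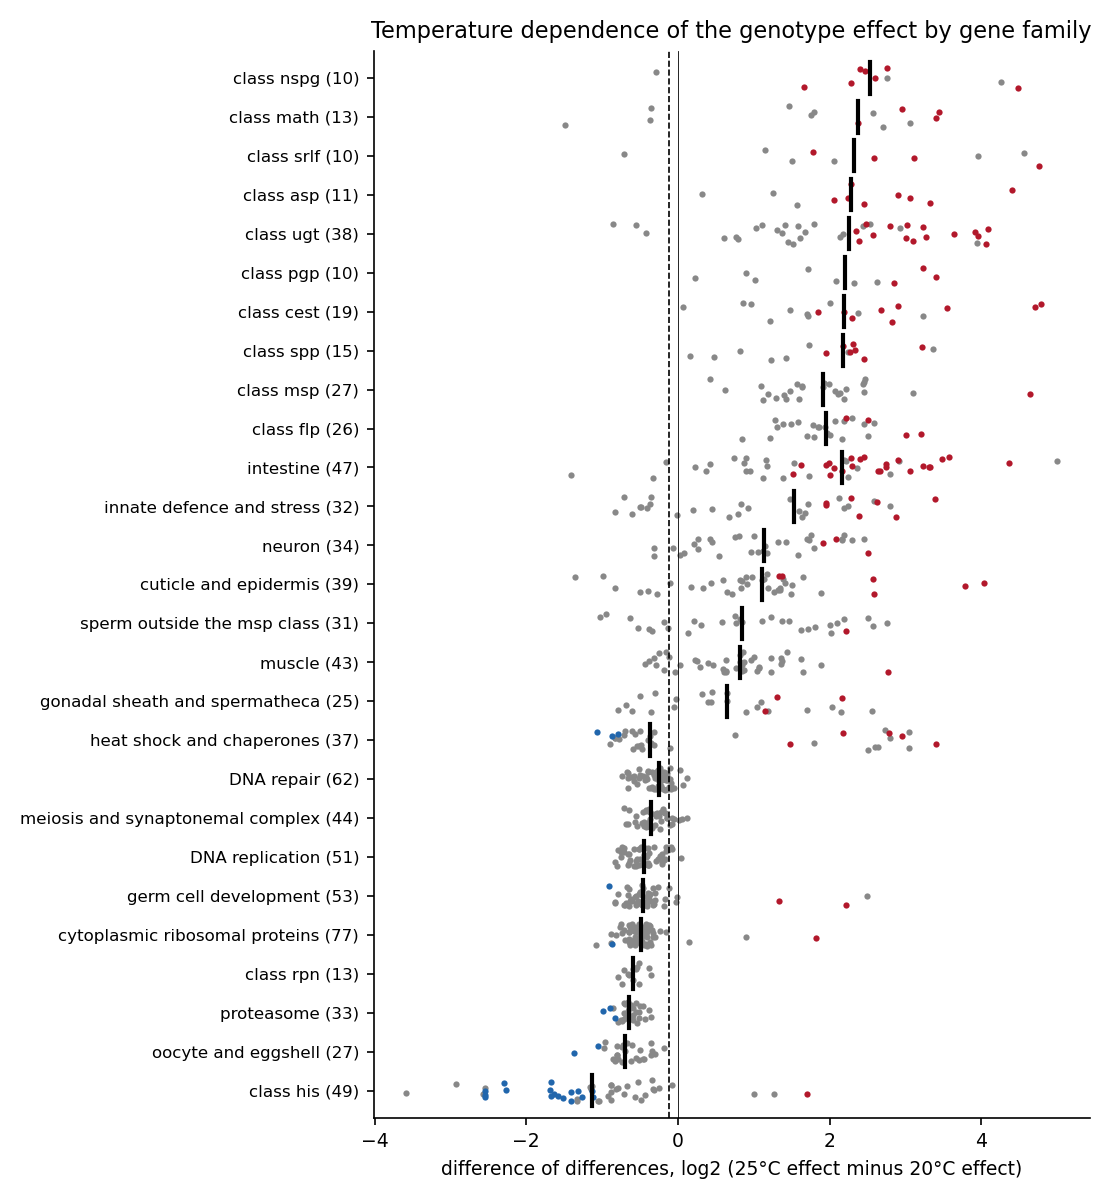
Each point is a gene, placed by its difference of differences (log2) and coloured red or blue where the genotype effect was higher or lower at 25°C past the threshold. The black bars are medians, the number of genes tested stands in brackets, and the dashed line is the median of all genes (-0.11). Intestine genes and the 8 highest classes lie between medians of 2.16 and 2.53, and the histone class lies at -1.13. All 27 msp genes had a WT mean under 10 in at least 1 table and passed the limit there through *nmad-1*. The medians between -0.48 and -0.25 turned positive with equal totals and with germ cell development genes set equal.

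Intestine genes held the most calls of the 20 lists. Of 47 tested, 23 had a higher effect at 25°C and 0 a lower one, and the median difference of differences was 2.16, or 2.28 above the median of all genes. The median genotype effect was 0.30 at 20°C and 2.27 at 25°C. The gut of the worm digests bacteria with secreted and lysosomal proteases. *cpr-5* (chromosome V), a cathepsin B-like cysteine protease, had values of 621 and 655 in WT and 874 and 781 in *nmad-1* at 20°C, and of 13.9 and 16.45 in WT and 272 and 674 in *nmad-1* at 25°C. At 20°C the genotypes lay close together, and they did not overlap at 25°C, where both *nmad-1* libraries stood far above WT. For this gene the difference of differences was 4.37 (standard error 0.48, limma adjusted p = 0.003). *cpr-4*, a related protease, reached 3.49 (limma adjusted p = 0.0055), and the lysozyme gene *lys-1* 1.96 (limma adjusted p = 0.0071). All of these 3 genes stayed past the threshold with any library left out and under every scaling.

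The aspartyl proteases of class asp, cathepsin D-like enzymes of which 6 are also in the intestine list, had a positive difference in 11 of 11 genes, and 8 passed the threshold. *asp-6* had 5051 and 6304 in WT and 6135 and 8617 in *nmad-1* at 20°C. Its values at 25°C were 510.0 and 648 in WT and 4138 and 13496 in *nmad-1*. Both *nmad-1* libraries stood above WT, and they also stood far apart from each other. The difference of differences was 3.33 for *asp-6*, 3.07 for *asp-3* and 2.91 for *asp-5* (limma adjusted p = 0.0087, 0.0082 and 0.0087). Without library B of *nmad-1* at 20°C their adjusted p was 0.058 each. *nuc-1*, a DNase II enzyme that degrades DNA in the gut and in cell corpses, was the single gene of the 32 on the apoptosis list that was called, at 1.98 (limma adjusted p = 0.035).

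The spread of the summed intestine signal between libraries was wide. Summed in ppm, the 47 genes gave 15916 and 18697 in WT and 10198 and 22989 in *nmad-1* at 20°C. At 25°C they gave 3248 and 5049 in WT and 9202 and 24560 in *nmad-1*. A sum weighs genes of high level most. Class asp, of which 6 genes are in this list, gave 1219 and 1434 in WT and 1919 and 1792 in *nmad-1* at 20°C. Its sums at 25°C were 157 and 192 in WT and 1192 and 3235 in *nmad-1*. WT at 25°C was below WT at 20°C in every pair of libraries for 45 of the 47 genes, whereas *nmad-1* at 25°C was below *nmad-1* at 20°C in every pair for 9 and above for 11. None of the 47 genes was at 0 in both libraries of any group. The intestine lies beside the gonad, and the part that carried-over tissue had in these values was not tested. The median of the list was 1.79 without library A of *nmad-1* at 20°C and 2.23 without library B.

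The yolk genes were singled out after their values were seen. *vit-2* had 15294 and 28469.7 in WT and 46197 and 164735 in *nmad-1* at 25°C, whereas *vit-3* had 4106 and 9144 in WT and 1751 and 2469 in *nmad-1*. The *nmad-1* libraries were thus above WT for one yolk gene and below it for another. At 20°C *vit-2* had 62555 and 70544 in WT and 27165 and 107886 in *nmad-1*, with WT inside the range of the mutant. The difference of differences was 2.36 for *vit-2* (limma adjusted p = 0.10) and -0.16 for *vit-3* (limma adjusted p = 0.87), and none of *vit-1* to *vit-6* passed the threshold. The others gave 0.42 for *vit-1*, -0.33 for *vit-4*, 1.17 for *vit-5* and 1.53 for *vit-6*.

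Enzymes and transporters that handle foreign compounds formed the next group. Of 38 ugt genes, which encode UDP-glucuronosyltransferases that conjugate sugars to small molecules, 15 had a higher effect at 25°C and 0 a lower one, with a median of 2.26. *ugt-22* had 183 and 233 in WT and 184 and 245 in *nmad-1* at 20°C, where the genotypes overlapped, and 36.6 and 38.4 in WT and 225 and 217 in *nmad-1* at 25°C. In ppm outside ribosomal RNA the 2 *nmad-1* libraries stood at 11.4 and 12.28 at 20°C and 13.8 and 12.9 at 25°C, and WT went from 8.64 and 11.3 to 1.55 and 1.51. It gave a difference of differences of 2.49 (standard error 0.36, limma adjusted p = 0.007), followed by *ugt-46* at 2.57 and *ugt-4* at 3.102 (limma adjusted p = 0.0096 and 0.013). Of 19 carboxylesterase genes of class cest 9 were called, led by *cest-2.1* at 4.72 (limma adjusted p = 0.011), *cest-4* at 2.90 and *cest-9.1* at 2.83. *cest-2.1* and *cest-9.1* had WT means of 1.04 and 5.77 at 25°C and passed the limit on the mean there through *nmad-1*. Of 10 pgp genes, which encode ABC exporters of the P-glycoprotein type, 3 were called: *pgp-3* at 3.23, *pgp-11* at 3.40 and *pgp-5* at 2.85. *pgp-11* had a WT mean of 4.28 at 25°C and likewise passed the limit there through *nmad-1*. The decile that held the median level of the class had a median over all genes of 0.98 for ugt and cest and 1.102 for pgp.

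The saposin-like class spp, small lipid-binding proteins of which some kill bacteria, had 7 of 15 genes with a higher effect at 25°C. *spp-8* had 199 and 274 in WT and 382 and 866 in *nmad-1* at 20°C, with 31.7 and 36.2 against 437 and 1464 at 25°C. The mutant was above WT at both temperatures, by a wider margin at 25°C. *spp-8* reached 3.22, *spp-15* 2.45 and *spp-3* 2.18 (limma adjusted p = 0.018, 0.023 and 0.023). Of 10 genes of the nematode-specific peptide class nspg 7 were called, with *nspg-7.1* at 2.75, *nspg-14* at 2.29 and *nspg-6* at 2.40. In the srlf class 4 of 10 genes were called (*srlf-30* at 4.77, *srlf-34* at 3.12, *srlf-7* at 2.59 and *srlf-31* at 1.78). In the math class, named for the MATH domain, 4 of 13 were, among them *math-3* at 3.44, *math-26* at 2.96 and the pseudogene *math-27* at 3.41. *math-3* had a WT mean of 5.87 at 25°C and passed the limit on the mean there through *nmad-1*. None of these 4 classes held a gene with a lower effect. The classes next in order were ttr (transthyretin-related), with 17 of 39 genes higher and a median of 2.101, and clec (C-type lectin domain), with 18 of 58 higher and a median of 1.68.

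Under the 4 other scalings the medians of the 8 highest classes stayed positive, as did that of the intestine list. Those scalings all raised the median over all genes, so a positive median could not turn. A scaling shifts every gene by nearly the same amount, so apart from the pseudocount the distance of a class from that median was fixed. It was 2.38 for ugt as deposited and 2.34 to 2.35 under the other scalings, and 2.40 for asp in each case. Neither is a measure of stability. The calls in these 8 classes changed with the setting. They numbered 57 as deposited, 85 higher and 4 lower without library A of *nmad-1* at 20°C, 1 (in ugt) without library B and 17 with upper quartile scaling, where spp and pgp had 0 and cest 1. Without library B the medians were 1.67 for pgp, 1.71 for math, 1.83 for ugt, 2.04 for srlf, 2.15 for spp, 2.30 for cest, 2.46 for asp and 2.60 for nspg.

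Stress genes were split between families. Heat shock and chaperone genes had 5 of 37 higher and 3 lower at 25°C, with a median of -0.37 that turned positive (0.15 and 0.20) with equal totals and with germ cell development genes set equal. The 5 higher ones were all of the hsp class, of which 21 genes were tested with a median of 1.48. This class was itself split, with a difference above 0 for 12 genes and below 0 for 9. Its sum in ppm, which weighs genes of high level most, was lower in the mutant at both temperatures. For 20°C the sums were 14445.5 and 15260 (WT) and 11677 and 12578.5 (*nmad-1*). Those for 25°C were 11952 and 12750 (WT) and 7606 and 9318 (*nmad-1*). *hsp-17*, a small heat shock protein gene, had 240.0 and 410.0 in WT and 322 and 275 in *nmad-1* at 20°C, with 24.8 and 31.8 against 205 and 410.1 at 25°C. The genotypes overlapped at 20°C, and in ppm WT went from 11.4 and 19.9 at 20°C to 1.05 and 1.25 at 25°C. *hsp-17* had a difference of differences of 3.40 (standard error 0.49, limma adjusted p = 0.007), with 2.18 for *hsp-43* and 2.79 for *hsp-70* (limma adjusted p = 0.012 and 0.025). The 3 lower ones were subunits of the chaperonin CCT, which folds actin and tubulin. *cct-5* had 12197 and 12410.1 in WT and 8468 and 10851 in *nmad-1* at 20°C, with 14749.8 and 15569 against 5434 and 5883 at 25°C. *nmad-1* was below WT at both temperatures, and further below at 25°C, with a difference of -1.06 (limma adjusted p = 0.018). *cct-8* and *cct-2* gave -0.87 and -0.79 (limma adjusted p = 0.043 and 0.042).

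Of 32 innate defence and stress genes 7 had a higher effect at 25°C and 0 a lower one, with a median of 1.53. Besides *lys-1* the leading genes were the catalases *ctl-2* at 2.63 and *ctl-1* at 2.39 (limma adjusted p = 0.018 and 0.017), enzymes that break down hydrogen peroxide. *ctl-2* had 401 and 359 in WT and 322 and 429.5 in *nmad-1* at 20°C, with 68.6 and 123.6 against 350.3 and 906 at 25°C. The groups of *ctl-2* overlapped at 20°C and were apart at 25°C. The median of the list was 1.80 without library A of *nmad-1* at 20°C, with 16 genes higher and 7 lower, and 0.86 without library B, with 1 higher.

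Genes of other somatic tissues were called at a share near that of all genes. Together the muscle, cuticle, neuron and sheath lists held 141 genes, of which 13 had a higher effect at 25°C (9.22%, against 8.07% of all genes) and 0 a lower one. Without library A of *nmad-1* at 20°C these were 79 and 10, and without library B 0 and 0. In the cuticle and epidermis list 6 of 39 were called, with a median of 1.11. They included *nas-37*, a metalloprotease used in molting, at 4.04, *elt-3*, a GATA factor of the epidermis, at 2.58, and the collagen gene *sqt-3* at 2.57 (limma adjusted p = 0.012, 0.018 and 0.018). In the muscle list 1 of 43 was called, *hlh-1*, the worm homolog of MyoD, at 2.77 (limma adjusted p = 0.036), and the median was 0.81. That median was 1.27 without library A of *nmad-1* at 20°C, with 32 genes higher and 3 lower, and 0.17 without library B, with none called. In the gonadal sheath and spermatheca list 3 of 25 were called, with a median of 0.65, which was 0.94 without library A and 0.32 without library B. These were *mig-6*, a papilin of the basement membrane, at 2.16, *nid-1*, nidogen, at 1.302, and *nmy-1*, a non-muscle myosin heavy chain, at 1.14 (limma adjusted p = 0.030, 0.046 and 0.025). Summed in ppm, the muscle genes gave 5535 and 6873 in WT and 12996 and 5371 in *nmad-1* at 20°C, with 2473 and 2636 against 4522 and 4791 at 25°C. The cuticle genes gave between 1067 and 1707 in the 4 libraries at 20°C, 509 and 871 in WT at 25°C and 1125 and 1136 in *nmad-1* at 25°C. Of the 56 cuticle genes 7 were at 0 in both WT libraries at 25°C.

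Neuropeptide genes varied with library A of *nmad-1* at 20°C. The 26 flp genes and 34 nlp genes tested had medians of 1.96 and 1.90, and 4 and 6 of them passed the threshold. In the neuron list 3 of 34 genes were called, with a median of 1.13. They were *egl-3*, the convertase that cleaves neuropeptide precursors, *sbt-1*, its chaperone, and the neuropeptide gene *flp-1*. *egl-3* had 1397 and 1771 in WT and 3548 and 1429.8 in *nmad-1* at 20°C, with 252 and 131 against 1246 and 977 at 25°C. Library A of *nmad-1* at 20°C stood above the other 3 libraries of its table, and library B was within the WT range. The difference of differences was 2.08 for *egl-3*, 1.92 for *sbt-1* and 2.51 for *flp-1* (limma adjusted p = 0.033, 0.043 and 0.045). For the neuron list the median was 1.85 without library A and 0.47 without library B, for flp 2.79 and 1.22, and for nlp 2.83 and 1.14. Summed in ppm, the neuron genes gave 381 and 339 in WT and 775 and 689 in *nmad-1* at 25°C, and 2 of the 48 genes of the list were at 0 in both WT libraries at 25°C.

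Sperm genes varied with the *nmad-1* library used at 20°C. The 27 msp genes tested encode the major sperm protein of the sperm cytoskeleton. All passed the limit on the mean through *nmad-1* in at least 1 table. Their higher level in the mutant was largely fixed by that limit and is a description. Summed in ppm, the class gave 18.04 and 0.432 in WT and 241 and 18.1 in *nmad-1* at 20°C, with 4.35 and 3.53 against 210.1 and 313 at 25°C. Library A of *nmad-1* at 20°C thus stood near the 2 *nmad-1* libraries at 25°C, and library B near WT. Their median difference of differences was 1.92, and it was 3.42 without library A and 0.18 without library B. The 1 gene called was *msp-19*, with 19.6 and 2.66 in WT and 240.2 and 27.9 in *nmad-1* at 20°C and with 205 and 280.3 in *nmad-1* at 25°C. It was at 0 in both WT libraries at 25°C, so *nmad-1* was at least 77.5-fold higher there, counted against a floor of 3 reads per library, and its fitted difference of 4.65 (limma adjusted p = 0.048) is no bound. Among 31 sperm genes outside this class 1 was called, with a median of 0.85 that was 2.14 without library A and 0.07 without library B.

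That gene was *fog-3*, which with *fog-1* directs germ cells to become sperm. *fog-3* had 11.8 and 12.4 in WT and 33.2 and 46.6 in *nmad-1* at 20°C, with 29.7 and 28.5 against 434 and 429 at 25°C. *fog-1* had 976 and 914 in WT and 841 and 1048 in *nmad-1* at 20°C, where the groups overlapped, and 1159 and 1107 against 2965 and 2729 at 25°C. Both mutant libraries at 25°C stood far above WT for each gene. The difference of differences was 2.22 for *fog-3* (standard error 0.48, limma adjusted p = 0.019) and 1.34 for *fog-1* (standard error 0.24, limma adjusted p = 0.0098). *fog-1* kept its call with any library left out and under every scaling, and without library B of *nmad-1* at 20°C the adjusted p of *fog-3* was 0.052. They were 2 of the 3 genes called among 53 of germ cell development, whose median was -0.47. That median turned to 0.05 with equal totals and 0.10 with these same genes set equal. The third was *car-1*, an RNA-binding protein of germ granules, at -0.91 (limma adjusted p = 0.047).

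Histone genes went the other way. Of 49 his genes tested 17 had a lower effect at 25°C and 1 a higher one, and the median was -1.13. The median genotype effect was 0.50 at 20°C and -0.63 at 25°C, so the median lay above WT at the lower temperature and below it at the higher. *his-47* had 4371 and 4337 in WT and 5211 and 7179.6 in *nmad-1* at 20°C, with 7998 and 6474 against 3594 and 3989 at 25°C. The groups did not overlap at either temperature and their order was reversed. *his-47* thus had a difference of differences of -1.42 (standard error 0.26, limma adjusted p = 0.011), and it held with any library left out and under every scaling. *his-11* had 477 and 573 in WT and 1049 and 568 in *nmad-1* at 20°C, with 8449.5 and 6484 against 2054 and 2401 at 25°C. In ppm outside ribosomal RNA WT went from 22.6 and 27.9 at 20°C to 357 and 255 at 25°C, and *nmad-1* from 65.0 and 28.5 to 126 and 143. The difference of differences was -2.30 (limma adjusted p = 0.0081). *his-45* gave -1.26, *his-31* -2.26 and *his-54* -1.68 (limma adjusted p = 0.013, 0.025 and 0.027).

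The 1 histone gene with a higher effect at 25°C was *his-71*, which encodes a replacement variant used outside DNA replication. It had 150.2 and 154 in WT and 161 and 108 in *nmad-1* at 20°C, with 45.6 and 59.2 against 133 and 165 at 25°C, a difference of 1.70 (limma adjusted p = 0.028). Core histone genes are near-identical copies and the reads were divided among them by RSEM, so single members are uncertain: 9 of the 49 had values identical to another member in all 8 libraries, and the 17 lower genes amounted to 14 distinct sets of values. The mRNA was selected by its poly(A) tail, which core histone mRNA of this kind largely lacks, and the levels are those of what was captured. The median of the class was -1.31 without library A of *nmad-1* at 20°C, -0.93 without library B and between -0.90 and -0.56 under the other scalings. The 17 lower calls became 26 without library A and 2 without library B, and 4 with upper quartile scaling, 8 with equal totals, 6 with equal totals outside ribosomal RNA and 1 with germ cell development genes set equal. Summed in ppm, the class gave 2414 and 2526 in WT and 3318 and 3457 in *nmad-1* at 20°C, with 3724 and 3006 against 2420 and 2812 at 25°C. The mutant was above WT at 20°C and below it at 25°C in every pair of libraries.

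Oocyte and eggshell genes were all on the negative side. Of 27 tested, 27 had a difference below 0 and 2 passed the threshold, with a median of -0.70. The median genotype effect was -0.16 at 20°C and -0.89 at 25°C. Of all 11265 genes 6319 had a difference below 0. In the highest decile, which holds the median level of the list, 1076 of 1127 genes did, so the number below 0 is near that share. The median of that decile was -0.43. *cpg-3*, a chondroitin proteoglycan of the eggshell, had 12602 and 10163 in WT and 9866 and 14848 in *nmad-1* at 20°C, with 14783 and 17359.5 against 6874 and 6432 at 25°C. The groups overlapped at 20°C, and at 25°C both mutant libraries were below both WT libraries. Its difference was -1.37 (standard error 0.29, limma adjusted p = 0.017), and that of *cpg-1* was -1.05 (limma adjusted p = 0.0497). The median of the list stayed negative under every scaling, between -0.47 and -0.13, and was -1.01 without library A and -0.42 without library B. Summed in ppm, the list gave between 33708 and 39658 in the 4 libraries at 20°C, 37201 and 38942 in WT at 25°C and 31763 and 29837 in *nmad-1* at 25°C.

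The proteasome followed. All 33 subunit genes tested had a difference below 0 and 3 passed the threshold, with a median of -0.65 that stayed below 0 under every scaling. The highest decile, which holds the median level of this list as well, had 1076 of 1127 genes below 0. Without library A of *nmad-1* at 20°C all 33 were called lower, with a median of -0.86, and without library B 0 were, with a median of -0.40. *pas-2*, a subunit of the core particle, had 3934 and 3922 in WT and 2696 and 3717 in *nmad-1* at 20°C, with 5008 and 5657 against 2136 and 2179.8 at 25°C. The difference was -0.99 for *pas-2*, -0.90 for *pbs-5*, another core subunit, and -0.83 for *rpt-4*, an ATPase of the regulatory particle (limma adjusted p = 0.030, 0.041 and 0.049). In the class rpn, other subunits of the regulatory particle, 0 of 13 passed with limma (10 at an unadjusted p under 0.05), with a median of -0.60. Of the respiratory chain genes 2 of 38 passed, both subunits of ATP synthase: *atp-2* at -0.88 and *atp-1* at -0.86 (limma adjusted p = 0.033 and 0.042). The median of that list was -0.44, and it turned to 0.08 and 0.13 with equal totals and with germ cell development genes set equal.

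Small RNA pathway genes had 3 of 45 lower and 0 higher, with a median of -0.39 that turned to 0.12 and 0.18 under the same 2 scalings. Without library A of *nmad-1* at 20°C 36 were called lower, and without library B 0. The 3 genes were the Argonautes *csr-1* and *wago-4* and the helicase gene *znfx-1*, which belong to the small RNA pathways of the germline. CSR-1 is known for protecting germline genes from silencing, and WAGO-4 and ZNFX-1 act in inherited silencing. *csr-1* had 10936 and 10705 in WT and 6835 and 8228 in *nmad-1* at 20°C, with 16384 and 15906 against 6015 and 6630.0 at 25°C. *nmad-1* was below WT at both temperatures, with the wider gap at 25°C. The difference was -0.83 for *csr-1*, -0.90 for *wago-4* and -0.93 for *znfx-1* (limma adjusted p = 0.036, 0.033 and 0.031).

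Cytoplasmic ribosomal protein genes had 1 of 77 higher and 1 lower. The lower one was *rps-29* at -0.86 (limma adjusted p = 0.048), and the higher one was *rpl-25.1* at 1.82 (limma adjusted p = 0.027). The list as a whole was lower in *nmad-1* at both temperatures, with median effects of -0.66 and -1.17. Its median difference of -0.48 turned to 0.03 and 0.09 with equal totals and with germ cell development genes set equal. None of 69 mitochondrial ribosomal protein genes passed with limma (8 at an unadjusted p under 0.05), and their median of -0.37 turned to 0.15 and 0.20 under those scalings. The remaining classes of lowest median were rpb (RNA polymerase subunits, -0.54), rpl (-0.49), rbm (RNA-binding motif proteins, -0.49), rps (-0.47), ints (Integrator subunits, -0.46) and puf (PUF RNA-binding proteins, -0.45). With equal totals all of these but rpb turned positive, and with germ cell development genes set equal rpb did too (0.03). Relative to the median of all genes they lay between -0.42 and -0.34.

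No gene of the DNA replication (51), DNA repair (62), meiosis (44) or cell cycle and kinetochore (58) lists passed the threshold with limma, and the number at an unadjusted p under 0.05 was 16, 8, 5 and 16. Their medians were -0.45, -0.25, -0.35 and -0.45, and each of them turned positive with equal totals (0.07, 0.26, 0.16 and 0.06) and with germ cell development genes set equal. Without library A of *nmad-1* at 20°C 43, 35, 33 and 50 genes of these lists were called lower and 0 higher, and without library B 0 were called. The number below 0 was 50 of 51, 59 of 62, 41 of 44 and 56 of 58. The median levels of these lists lie in the eighth, ninth and highest deciles. There 992 of 1127, 1027 of 1126 and 1076 of 1127 genes were below 0, so the lists are near these shares. The medians of these deciles were -0.27, -0.30 and -0.43, and without library A of *nmad-1* at 20°C they were -0.47, -0.51 and -0.62. Library A of *nmad-1* at 20°C was farther from WT than library B for 50 of the 51 replication genes and 56 of the 62 repair genes. Without it the medians were -0.68, -0.49, -0.56 and -0.67, and without library B they were -0.23, -0.03, -0.11 and -0.22. The median of the apoptosis and engulfment list was -0.30, and it turned to 0.21 and 0.26 under the same 2 scalings. With equal totals outside ribosomal RNA the repair and apoptosis medians were positive as well (0.10 and 0.05).

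Among single genes that the study's text names, *top-2*, the type II topoisomerase, came nearest to a call. It had 17503 and 18631 in WT and 13525 and 18156 in *nmad-1* at 20°C, with 29031 and 30729 against 14582 and 16329.6 at 25°C. The groups overlapped at 20°C, where library B lay inside the WT range, and did not at 25°C. The log2 fold change was -0.20 (0.17, standard error) at 20°C and -0.95 (0.17) at 25°C, and the difference was -0.75 (limma adjusted p = 0.077). It was -0.52 with upper quartile scaling and -0.40 with equal totals outside ribosomal RNA. With equal totals and with germ cell development genes set equal it was -0.23 and -0.18 (limma adjusted p = 0.44 and 0.36). Without library A it was -0.96 (limma adjusted p = 0.0047), and without library B -0.54 (limma adjusted p = 0.081). *mtss-1*, which encodes the mitochondrial single-stranded DNA-binding protein, gave -0.58 (limma adjusted p = 0.13). That value was -0.068 with equal totals and -0.015 with germ cell development genes set equal. The helicase subunit *mcm-4* gave -0.51, the recombinase *rad-51* -0.25 and the meiotic nuclease *spo-11* 0.02 (limma adjusted p = 0.23, 0.48 and 0.96). The engulfment receptor *ced-1* gave -0.15, the caspase *ced-3* -0.42 and *cep-1*, the worm homolog of p53, -0.44 (limma adjusted p = 0.68, 0.29 and 0.25). None of these 8 genes passed as deposited, with standard errors of 0.23 to 0.27. Without library A of *nmad-1* at 20°C 6 of them passed, namely *top-2* and, at limma adjusted p values of 0.0070, 0.0053, 0.013, 0.017 and 0.028, *mcm-4*, *ced-3*, *cep-1*, *mtss-1* and *rad-51*, and without library B none did. With germ cell development genes set equal *spo-11* passed (limma adjusted p = 0.049).

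The largest single differences were then taken over all genes tested, inside and outside the families above. Among genes whose mean reached 50 in both tables and with all 4 pairwise differences at 25°C beyond all 4 at 20°C, a separation seen in 50.3% of all genes tested, 637 called genes were on the positive and 132 on the negative side. The largest positive value was that of *D1086.10*, with 129.6 and 162 in WT and 135 and 1.70 in *nmad-1* at 20°C, with 22.8 and 96.5 against 527 and 814 at 25°C. Library B of *nmad-1* at 20°C was near 1.7 and library A within the WT range, and the fitted difference of 6.70 had a standard error of 1.79. *C50F7.5* had 492 and 527 in WT and 463 and 257 in *nmad-1* at 20°C, with 11.9 and 29.6 against 577 and 852 at 25°C, a difference of 5.70 (standard error 0.55, limma adjusted p = 0.0027). *clec-17*, a C-type lectin gene, had 5.94 and 6.58 in WT and 285 and 591 in *nmad-1* at 25°C and a difference of 4.66 (limma adjusted p = 0.0055). *C50F7.5* and *clec-17* kept their calls with any library left out and under every scaling. The others were *F01D5.5* at 5.10, *ule-2* at 4.81, *srlf-30*, *F41F3.3* at 4.75 and *msp-19*. The WT mean at 25°C was 6.26 for *clec-17*, 8.97 for *F01D5.5*, 6.58 for *F41F3.3* and 0 for *msp-19*. These genes passed the limits on the mean at 25°C through *nmad-1*, which favours a higher mutant level there. For *C50F7.5*, *srlf-30* and *ule-2* the WT mean at 25°C was 20.7, 10.9 and 39.3. They too met the limit of 50 there through *nmad-1*. The calls and ranks of all these genes are a description.

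The largest negative values were those of *his-11* and *his-31*, followed by *C25A11.1* at -2.103, *W04A4.2* at -2.05, *Y54G2A.36* at -2.02, the pseudogene *F46C3.4* at -1.97, *ZK973.8* at -1.72 and *his-54*. *W04A4.2* had 281 and 247 in WT and 208 and 293 in *nmad-1* at 20°C, with 256 and 236 against 57.2 and 52.7 at 25°C. The genotypes overlapped at 20°C, and at 25°C both mutant libraries were far below WT. Its limma adjusted p was 0.0087, and 0.052 without library B of *nmad-1* at 20°C.

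For 375 of the 1050 genes the genotype effect had opposite signs at the 2 temperatures, and for 68 of these both effects were of at least 1.5-fold with groups apart at each temperature, 54 turning from lower to higher and 14 from higher to lower. The 6 of smallest p were *F25E2.2*, *far-6*, *Y54G2A.36*, *C41G11.1*, *ule-1* and *F08F3.4*. *far-6*, a fatty acid and retinol binding protein gene, had 255 and 223 in WT and 169 and 134 in *nmad-1* at 20°C, with 85.2 and 126 against 455 and 707 at 25°C. It was lower in the mutant at 20°C and higher at 25°C. *Y54G2A.36* had 249.6 and 196 in WT and 305 and 419 in *nmad-1* at 20°C, with 1169.8 and 956 against 403 and 441 at 25°C, the opposite order. *ule-1*, a gene expressed in the uterus, had 479.9 and 410.0 in WT and 284 and 131 in *nmad-1* at 20°C, with 243 and 329 against 758 and 905 at 25°C. The log2 fold changes were -0.66 and 2.44 for *far-6*, 0.69 and -1.32 for *Y54G2A.36*, and -1.199 and 1.55 for *ule-1*.

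**Figure D5:**
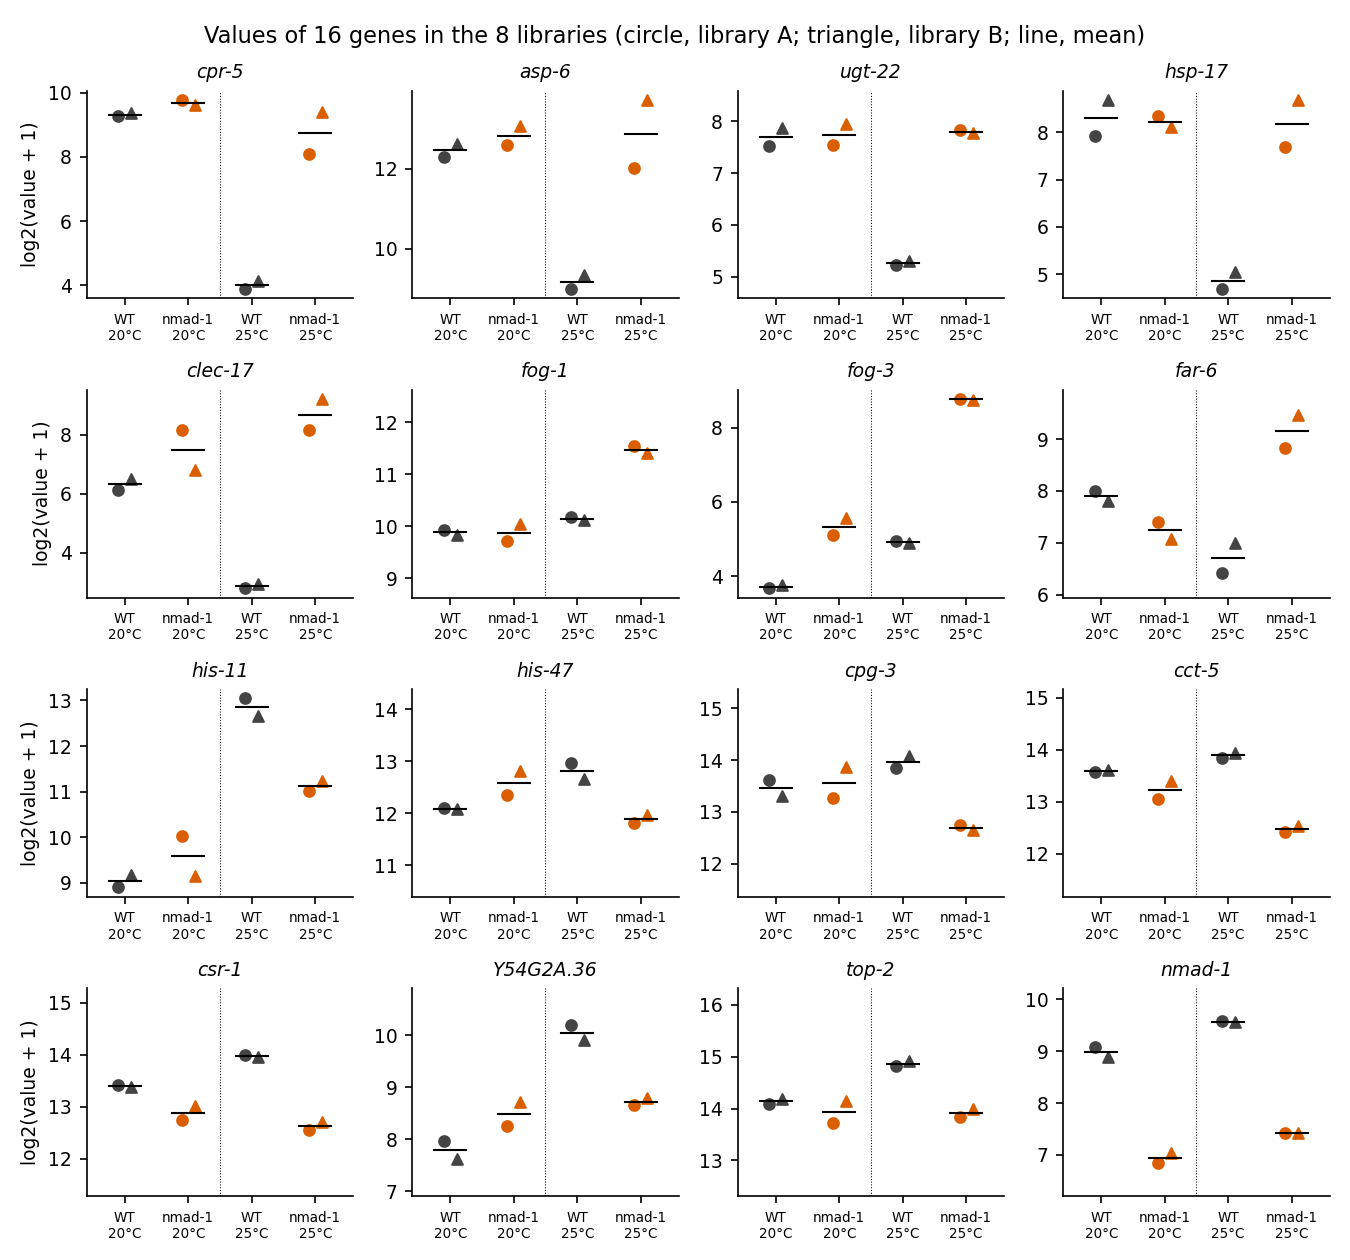
Each panel gives log2(value + 1) of a gene in the 8 libraries, with circles for library A, triangles for library B and lines for the mean of 2, and the dotted line parts the 2 tables, which were normalized apart. *cpr-5*, *asp-6*, *ugt-22*, *hsp-17*, *clec-17*, *fog-1*, *fog-3* and *far-6* have a genotype effect that is higher at 25°C, *his-11*, *his-47*, *cpg-3*, *cct-5*, *csr-1* and *Y54G2A.36* one that is lower, and *top-2* and *nmad-1* were not called.

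By chromosome, 228 of the 1499 X-linked genes tested had a higher effect at 25°C (15.2%), against 678 of 9698 autosomal genes (6.99%). The median was 0.55 on the X chromosome and -0.16 on the autosomes. Within deciles of level the 2 medians were 1.25 and 0.96 in the lowest decile and 0.75 and 0.72 in the fourth. In the eighth decile 12 of 62 X-linked genes (19.4%) and 16 of 1059 autosomal genes (1.51%) were called higher. Without library A of *nmad-1* at 20°C 512 X-linked and 1757 autosomal genes were called higher, and without library B 4 and 24, with medians of 0.33 on the X chromosome and -0.01 on the autosomes. With upper quartile scaling the counts were 46 and 168. The X chromosome is largely silent in germ cells through early meiosis, and many of its transcripts come from the soma or from oocytes. Chromosome V had 222 of 1957 genes higher (11.3%) and chromosome I 68 of 2000 (3.40%). Of 297 pseudogenes 26 had a lower effect at 25°C (8.75%) and 6 a higher one, with a median of -0.67. Genes known by a sequence name alone made up 40.95% of the calls and 38.2% of the genes tested.

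A small set of genes kept the call under all of these changes. The call was made for 32 genes with each library left out in turn, for 219 under each of the 4 other scalings, and for 30 under both, of which 27 had a higher and 3 a lower effect at 25°C. These 30 included the proteases *cpr-4* and *cpr-5*, *lys-1*, *ugt-22*, *clec-17*, *far-6*, *ule-1*, *F25E2.2*, *C50F7.5* and *fog-1* on the positive side and *his-47* and *Y54G2A.36* on the negative side. With the trend of the variance on the mean left out of the fit, none of these named genes passed the threshold. Of them, *clec-17* had a WT mean of 6.26 at 25°C and passed the limit on the mean there through *nmad-1*.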

How the data were processed

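mRNA of extracted germlines was sequenced as paired reads on a NextSeq 500. The authors aligned trimmed reads to WS220 with bowtie2 2.2.9 and quantified them with RSEM 1.3.0 and EBSeq. Their methods also name featureCounts and edgeR, which was not used here. The deposited values are a signal, read from the values as RSEM's estimated count over a scaling factor of the library, with a separate table for each temperature. Columns were tied to groups through the comparison named in the labels and in the study's supplement, and not to replicate numbers. Between 90.7% and 91.9% of values above 0 were whole multiples of 1 read (within 0.001 reads), so no count test was run. A value of 0 allows 3 reads, which covers counting error only. The authors' comparison tables (posterior probabilities, folds and group means) were not used. Symbols were found for 43720 gene IDs, and chromosomes come from WBcel235, another build than WS220, so no coordinates are given.

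The contrast was fitted on log2(value + 1) over all 8 libraries with limma 3.58.1 in R 4.3.3, with a mean-variance trend, 4 residual and 8 prior degrees of freedom, two-sided tests and Benjamini-Hochberg adjustment at 0.05 over 11265 genes. This scale understates the change of low genes. The labels do not say whether the samples of a group were separate cultures, so p-values measure the spread between these samples. The genes named are *nmad-1* and 8 genes of the study's text, the 8 largest differences in each direction among called genes whose mean reached 50 in both tables and whose pairwise differences were separated, the 3 called genes of smallest p per direction in each list and class, and the 6 of smallest p with opposite signs. *vit-2*, *vit-3* and the collagens missed by the filter were described after their values were seen. Members, lists and classes were chosen with earlier results of these data known. Alternatives were other pseudocounts, filters and scalings, a fit without the trend and each library left out. Scaling to equal totals outside ribosomal RNA was added after the data were seen. The code was tested on simulated data.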

Additional observations from a re-analysis of the deposited data

Results flagged for a closer look

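The genotype effect differed between the 2 temperatures, by limma's test of the difference itself, for 1050 genes. This count was 40 without library B of *nmad-1* at 20°C and 5827 without library A.

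The genes given next were chosen as the 6 of smallest p of this same test among called genes whose effect turned from one sign to the other, with groups apart at both temperatures, so their call is no further evidence. The difference of differences was 3.02 for *F25E2.2*, 3.1 for *far-6*, 6.43 for *C41G11.1*, 2.75 for *ule-1* and 3.4 for *F08F3.4*, which went from lower to higher in *nmad-1*, and -2.02 for *Y54G2A.36*, which went from higher to lower. *F25E2.2* had 258 and 215 in WT and 142 and 106 in *nmad-1* at 20°C, with 62.4 and 69.1 against 245 and 325 at 25°C. *C41G11.1* was at 2.97 and 0 in WT at 25°C, so its fitted value depends on the pseudocount. It passed the limit on the mean at 25°C through *nmad-1*.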

How the results depend on the processing

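No paired analysis was possible because the columns of the deposited tables carry no replicate numbers. Genes past the threshold numbered 1050 (909 with a higher and 141 with a lower effect at 25°C). With one library left out they numbered 40 to 5827 (28 to 2278 higher and 12 to 3549 lower). The total was 312 with upper quartile scaling, 1765 with equal totals and 4 without the trend. The higher calls were 551 with a mean of at least 100, 215 with upper quartile scaling, 1738 with equal totals and 4 without the trend, and the lower calls were 91 with no filter, 27 with equal totals, 16 with germ cell development genes set equal, 63 with equal totals outside ribosomal RNA and 0 without the trend. At an unadjusted p under 0.05 the fit without the trend gave 2879 genes. The cause was not tested.

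Differences that turned positive were those of *ced-1* (0.082, 0.37, 0.42 and 0.20) and *nmad-1* (0.13, 0.41, 0.46 and 0.25) with upper quartile scaling, equal totals, germ cell development genes set equal and equal totals outside ribosomal RNA, and *rad-51* with the last 3 of these (0.27, 0.32 and 0.10). With equal totals and with germ cell development genes set equal, *ced-3* turned to 0.094 and 0.15, *cep-1* to 0.071 and 0.12 and *mcm-4* to 0.0075 and 0.061. With one library left out *ced-1* ranged from -0.36 to 0.058 and *spo-11* from -0.19 to 0.24. None of these genes was called as deposited, while *mcm-4*, *rad-51*, *ced-3* and *cep-1* were without library A of *nmad-1* at 20°C and *spo-11* was with germ cell development genes set equal. Over all alternatives, values of the named genes turned sign in 21 cases, lost the call in 490, gained it in 7 and kept both in 1137, and medians of lists and classes moved by more than the spread between libraries in 102 of 648 cases. Values at 0 allow 3 reads per library.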

Other observations

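Collagen genes of the cuticle are used in turn at each molt, and those that missed the limit on the mean at 25°C were singled out after their values were seen. Of 159 col genes listed, 63 had a mean of at least 10 in both tables, 35 at 20°C alone and 1 at 25°C alone. *col-17* had values of 479 and 903 in WT and 1017 and 371 in *nmad-1* at 20°C and was at 0 in all 4 libraries at 25°C. *rol-6* had 129.6 and 169 in WT and 320.0 and 76.3 in *nmad-1* at 20°C and was at 0 in all 4 libraries at 25°C. *dpy-13* had 364 and 640 in WT and 857 and 203 in *nmad-1* at 20°C, with 0 and 0 in WT and 2.29 and 5.43 in *nmad-1* at 25°C. Libraries of both genotypes at 20°C thus held transcripts of these collagens and libraries of both genotypes at 25°C held few or none.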
